A study of Mus musculus with 2 samples.

Results

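The 5 antibody tags measured here were CD11b, CD172a, MERTK, XCR1 and CD317, set beside the genes that encode their targets, Itgam, Sirpa, Mertk, Xcr1 and Bst2. These 5 tags and 5 genes were read from 1 whole count matrix per library. The tags were read in the same droplets as the RNA: an antibody carries a DNA barcode, and each captured barcode molecule is counted once by its unique molecular identifier (UMI). Barcodes with at least 500 genes, at least 1000 gene UMIs and under 10% mitochondrial UMIs were kept as cells. There were 12305 such cells in the Stat4fl/flCD11cCre library and 13298 in the WT library.

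Both libraries came from C57BL/6 mice immunised for experimental autoimmune encephalomyelitis (EAE), in which myelin-reactive T cells drive inflammation of the central nervous system. The disease was induced in both groups with a myelin oligodendrocyte glycoprotein (MOG) peptide in complete Freund's adjuvant (CFA) and with pertussis toxin (PTX). Tissue was taken on day 15, and mononuclear cells were sorted as MHC class II- and CD11c-positive. In Stat4fl/flCD11cCre mice a Cre recombinase under the CD11c promoter acts on loxP-flanked Stat4; the other group is labelled WT. Cells of several mice were pooled into 1 library per genotype. Differences between genotypes could therefore not be set against a spread between mice and carry no p-value. Each interval is a 95% interval that covers counting error, or sampling of cells, within 1 library.

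CD11b is the alpha chain of the integrin Mac-1 (complement receptor 3), which pairs with the beta chain Itgb2 and binds ICAM-1 and fragments of complement C3 on phagocytes. CD172a (SIRPA) is an inhibitory receptor of myeloid cells that binds CD47, the "don't eat me" signal, and passes it on through the phosphatases SHP-1 and SHP-2. MERTK is a receptor tyrosine kinase of the TAM family that binds the bridging ligands Gas6 and protein S on dying cells, and it is a hallmark of microglia and macrophages. XCR1 is the chemokine receptor for XCL1 and marks type 1 conventional dendritic cells (cDC1), the cross-presenting lineage; type 2 cells (cDC2) lack it and carry CD172a. CD317 (tetherin, BST2, also known as PDCA-1) holds budding virions at the cell surface, is carried by plasmacytoid dendritic cells (pDCs), and is induced by interferon on many other cells.

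The genes lie on 4 chromosomes of mm10. Itgam (ENSMUSG00000030786) spans chr7:128062640-128118491 on the plus strand. Sirpa (ENSMUSG00000037902) spans chr2:129592835-129632228 and Mertk (ENSMUSG00000014361) chr2:128698956-128802894, both on the plus strand. Xcr1 (ENSMUSG00000060509) spans chr9:123852315-123862029 and Bst2 (ENSMUSG00000046718) chr8:71534255-71537456, both on the minus strand. Each tag name is the symbol or a listed synonym of its gene in RefSeq.

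The Bst2 promoter is shown because Bst2 RNA was the member that differed most between the libraries in microglia, together with a list of interferon-induced genes. It covers 250 bases before to 50 bases after the RefSeq start, at chr8:71537423-71537722 of GRCm38.p6 on the minus strand. Capitals mark matches to the core of the interferon-stimulated response element, spelled here as GAAA, any 2 bases and GAAA, and searched on both strands. There were 2 overlapping matches, which start 130 and 124 bases before the transcription start. The motif occurs in 1131 of 32851 promoters of this length (3.44%), and in none of the promoters of Itgam, Mertk and Xcr1. No promoter of Sirpa was available, so that member was not searched. Whether the motif bears on the difference between the libraries was not tested.
Bst2: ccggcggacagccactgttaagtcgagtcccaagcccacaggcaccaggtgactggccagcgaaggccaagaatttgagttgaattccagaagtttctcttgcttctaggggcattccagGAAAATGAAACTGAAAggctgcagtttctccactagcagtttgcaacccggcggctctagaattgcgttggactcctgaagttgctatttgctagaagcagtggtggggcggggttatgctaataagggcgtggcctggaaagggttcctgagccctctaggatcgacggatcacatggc

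The Stat4fl/flCD11cCre library held 12534 barcodes with 120221740 gene UMIs and 17306907 tag UMIs, and the WT library held 13820 barcodes with 122975017 gene UMIs and 18118382 tag UMIs. Kept cells had a median of 6878 gene UMIs and 792 tag UMIs in Stat4fl/flCD11cCre, and 6440.5 and 672 in WT. A cell was given a type if it had a UMI of at least 3 markers of that type and of no other type, and none of the 5 encoding genes was a marker. Where set for a type, a cell also needed a UMI of a required marker and none of the genes named as absent. Dendritic cells gated on Ccr7 took precedence over cDC1 and cDC2. These rules placed 8851 cells (71.9%) in Stat4fl/flCD11cCre and 8260 (62.1%) in WT; 2675 and 3851 cells met several types and were left out, and most results below rest on 12 types with 30 or more cells in each library. The libraries shared 43 barcodes, and without those cells the 10 tag and 5 RNA differences past 1.5-fold given below were the same. H2-Ab1, a chain of MHC class II, had a UMI in 43.6% of kept Stat4fl/flCD11cCre cells and 67.7% of WT cells, and Itgax, which encodes CD11c, in 14.4% and 17.7%; the kept cells also included T cells, neutrophils and choroid plexus-like cells. Stat4 RNA, whose floxed exons the labels do not name, was at 83.7 CPM (counts per 1e6 gene UMIs of the type; 67.6 to 103) in cDC2 of Stat4fl/flCD11cCre and 124 CPM (96.6 to 158) in those of WT, and at 245 and 252 CPM in T cells; reads near the 3' end do not test the deletion.

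T cells, which carry little of CD11b, CD172a, MERTK or XCR1, were used as the background of each tag. For CD317 they are a common reference and not a background, since Bst2 RNA was at 243 CPM in T cells of Stat4fl/flCD11cCre and 195 CPM in those of WT (log2 ratio 0.32, 0.23 to 0.41), with a UMI in 56.1% and 50.3% of them. The CD317 folds, positive shares and ratios relative to T cells given below rest on that reference. Their median CD11b tag was 21 UMIs in the Stat4fl/flCD11cCre library, below the 30 UMIs in WT. Their other tags were higher in Stat4fl/flCD11cCre: CD172a had a median of 93 against 40 UMIs in WT, MERTK 33 against 12, XCR1 25 against 11 and CD317 21 against 13. Tag counts were therefore read within a library, as folds of its own T cell median or as the share of cells above the 95th percentile of its T cells, called tag-positive here. The T cell gates held 966 cells in Stat4fl/flCD11cCre and 1877 in WT.

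**Figure D1:**
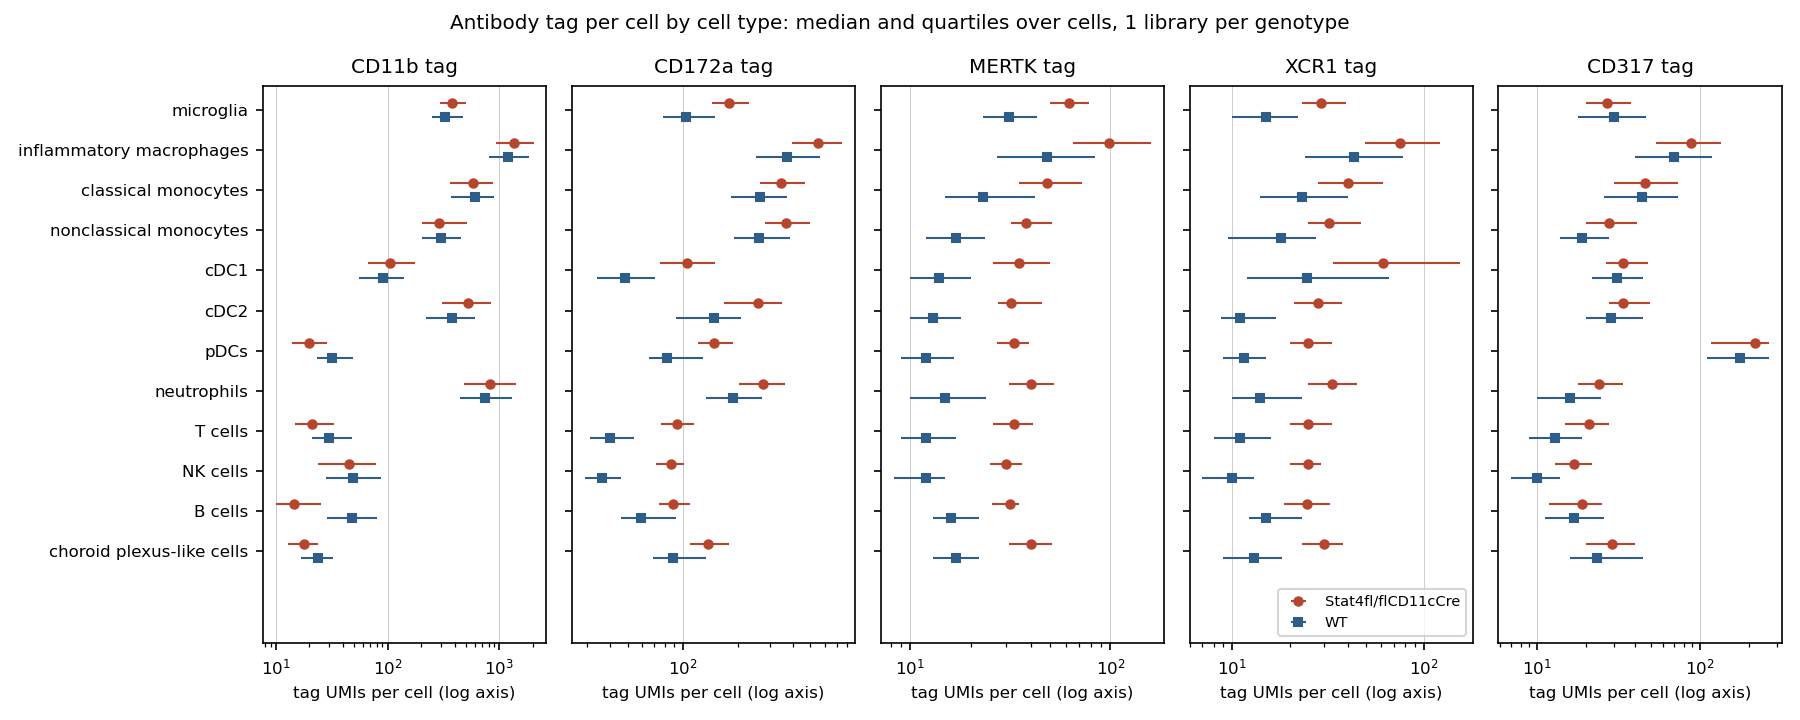
Tag UMIs per cell (log axes) for the 5 tags in 12 cell types; points are medians and bars quartiles over cells, Stat4fl/flCD11cCre above WT in each row. CD11b and CD172a peak in inflammatory macrophages and CD317 in pDCs, and the MERTK and XCR1 tags span a narrower range, with T cells at 33 and 25 UMIs in Stat4fl/flCD11cCre against 12 and 11 UMIs in WT.

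CD11b was carried by macrophages, neutrophils, monocytes, cDC2 and microglia at more than 10 times the T cell level. Inflammatory macrophages, gated on Arg1, Nos2 and genes found with them, had a median CD11b tag of 1364 UMIs (interval of the median 1289 to 1454) in Stat4fl/flCD11cCre, 65.0 times the T cell median, and 1197.5 UMIs (1152 to 1270) in WT, 39.9 times. Neutrophils followed with 824 and 743 UMIs, then classical monocytes with 578 and 604 and cDC2 with 526 and 377 in Stat4fl/flCD11cCre and WT. Microglia, the resident phagocytes of the brain, had 376 UMIs (370 to 381) in Stat4fl/flCD11cCre and 324 (319 to 332) in WT. Classical monocytes and cDC2 could not be ordered in Stat4fl/flCD11cCre, nor cDC2, microglia and nonclassical monocytes in WT, since their intervals overlapped. The share of CD11b-positive cells was 99.9% and 99.5% in macrophages, 99.3% and 95% in microglia and 98.7% and 98.4% in neutrophils of Stat4fl/flCD11cCre and WT. pDCs stood with T cells, at 20 UMIs in Stat4fl/flCD11cCre and 32 UMIs in WT, and NK cells slightly above, at 45 and 49 UMIs. cDC1 lay between these and the myeloid types, at 105 UMIs (85 to 144) in Stat4fl/flCD11cCre and 91 UMIs (74 to 117) in WT. Of cDC1, 50% (34.6 to 65.4) and 15.8% (8.43 to 26.0) were CD11b-positive, at thresholds of 109.75 and 163.4 UMIs. Their Itgam RNA was at 15.3 and 9.57 CPM.

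Itgam RNA put the same myeloid types on top but in another order. Microglia had the highest level, 668 CPM (659 to 677) in Stat4fl/flCD11cCre and 576 CPM (565 to 587) in WT, and neutrophils the next, 512 CPM (482 to 543) and 435 CPM (395 to 478). Inflammatory macrophages, with the highest tag, had 348 CPM (336 to 360) in Stat4fl/flCD11cCre and 345 CPM (333 to 357) in WT. The macrophages hold more RNA per cell, with a median of 11065.5 gene UMIs against 5089 in microglia of Stat4fl/flCD11cCre and 8318.5 against 4553 in those of WT. Counted per cell, Itgam was at 4.19 UMIs in macrophages and 4.18 in microglia of Stat4fl/flCD11cCre, and at 3.1 and 3.31 UMIs in those of WT, against tag medians of 1364 and 376 UMIs in Stat4fl/flCD11cCre and 1197.5 and 324 UMIs in WT. pDCs had 24.1 and 37.2 CPM and T cells 12 and 12.6 CPM of Itgam. An annotated readthrough model, Gm49368, overlaps Itgam on the same strand and has no row in the count table; how reads shared with it were counted was not tested.

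Among the integrin partners, Itgb2 was at 337 CPM in macrophages of Stat4fl/flCD11cCre and 366 CPM in those of WT, and at 196 and 210 CPM in microglia. Itgal, the alpha chain of LFA-1, the related integrin of lymphocytes, peaked in nonclassical monocytes at 1019 CPM in Stat4fl/flCD11cCre and 969 CPM in WT. The ligand gene C3 was highest in macrophages, at 555 CPM in Stat4fl/flCD11cCre and 458 CPM in WT. Nonclassical monocytes, the patrolling blood subset, carried the CD11b tag at 288 UMIs in Stat4fl/flCD11cCre and 303 UMIs in WT, with Itgam at 269 and 214 CPM.

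CD172a was broad in myeloid cells and spared cDC1. Its tag was highest in inflammatory macrophages, with a median of 548.5 UMIs (528 to 570) in Stat4fl/flCD11cCre and 374 UMIs (359 to 392) in WT, or 5.90 and 9.35 times the T cell median. Nonclassical monocytes had 370 and 263 UMIs, classical monocytes 347 and 266, neutrophils 277 and 189 and cDC2 259 and 148 in Stat4fl/flCD11cCre and WT. cDC1 had 105.5 UMIs (86 to 123) in Stat4fl/flCD11cCre and 48.5 UMIs (39 to 59) in WT, 1.13 and 1.21 times the T cell median. pDCs lay between, at 149 UMIs in Stat4fl/flCD11cCre and 82 UMIs in WT. The CD172a-positive share was 96.2% and 97.2% in macrophages and 65.0% and 60.3% in cDC2 of Stat4fl/flCD11cCre and WT, against 6.82% and 3.95% in cDC1.

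Sirpa RNA was at 8.49 CPM (2.76 to 19.8, 5 UMIs in all) in cDC1 of Stat4fl/flCD11cCre and at 5.47 CPM (1.49 to 14, 4 UMIs) in those of WT. In cDC2 it was at 123 CPM (104 to 146) in Stat4fl/flCD11cCre and 121 CPM (93.4 to 154) in WT. These values put tag and RNA of CD172a on the same side of the split between the 2 dendritic lineages in both libraries. Microglia departed from it: they had the highest Sirpa RNA, 754 CPM (745 to 764) in Stat4fl/flCD11cCre and 581 CPM (570 to 592) in WT, but a tag of only 180 and 104 UMIs, 1.94 and 2.60 times the T cell median. The CD172a-positive share of microglia was 31.4% (30.1 to 32.7) in Stat4fl/flCD11cCre and 36.6% (35.0 to 38.3) in WT. Choroid plexus-like cells, epithelial cells that make cerebrospinal fluid, had a CD172a tag of 138 UMIs with Sirpa RNA at 4.3 CPM in Stat4fl/flCD11cCre, and of 88 UMIs with Sirpa RNA at 5.45 CPM in WT.

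The CD172a ligand gene Cd47 was found in every type, lowest in choroid plexus-like cells (58.7 CPM in Stat4fl/flCD11cCre and 51.2 CPM in WT) and highest in pDCs (1144 and 1010 CPM). Ptpn6, which encodes SHP-1, was highest in nonclassical monocytes, at 397 CPM in Stat4fl/flCD11cCre and 428 CPM in WT, and at 2.86 and 5.45 CPM in choroid plexus-like cells. Ptpn11, which encodes SHP-2, stayed between 17.2 and 57.3 CPM in Stat4fl/flCD11cCre and between 4.35 and 50.9 CPM in WT.

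Mertk RNA was a microglial transcript here. It was at 1283 CPM (1270 to 1296) in microglia of Stat4fl/flCD11cCre and 1101 CPM (1086 to 1116) in those of WT, and at 117 and 113 CPM in inflammatory macrophages. Classical monocytes had 16.5 and 29.4 CPM, and T cells 2.71 and 3.12 CPM, in Stat4fl/flCD11cCre and WT. A UMI was found in 97.3% of microglia of Stat4fl/flCD11cCre and 93.6% of those of WT, against 1.66% and 1.44% of T cells, whose median depths were 5805 and 4827 gene UMIs. The MERTK tag did not follow this order. Its median was 98 UMIs (92 to 104) in macrophages and 62 UMIs (61 to 63) in microglia of Stat4fl/flCD11cCre, and 48 UMIs (45 to 51) and 31 UMIs (31 to 32) in those of WT.

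The tags moved together from cell to cell, MERTK and XCR1 among them. Over cells of 1 type, the Spearman correlation of MERTK and XCR1 was 0.91 in macrophages of Stat4fl/flCD11cCre and 0.90 in those of WT, 0.87 and 0.86 in classical monocytes, 0.65 and 0.51 in T cells, and 0.58 and 0.53 in microglia. In microglia MERTK went more closely with CD172a (0.78 in Stat4fl/flCD11cCre and 0.71 in WT) and CD11b (0.64 and 0.61) than with XCR1, and in T cells more closely with CD172a (0.72 and 0.59). The cells of a library share its staining and sequencing, and what the tags have in common was not tested. Dividing the MERTK tag by the XCR1 tag of the same cell set microglia apart. The median ratio was 2.08 in microglia of Stat4fl/flCD11cCre and 2 in those of WT, while macrophages had 1.33 and 1.09 and T cells 1.28 and 1.09. In the 11 types other than microglia this ratio ran from 0.631 in cDC1 to 1.34 in B cells of Stat4fl/flCD11cCre, and from 0.567 in cDC1 to 1.26 in choroid plexus-like cells of WT. By this median per cell, the type with the most Mertk RNA also had the highest MERTK over XCR1 ratio in both libraries, and the ratio was chosen after the tag values were seen. With the tags summed over cells before the division this held in WT, with 1.72 (1.71 to 1.74) in microglia and 0.818 in B cells, but not in Stat4fl/flCD11cCre, where the 40 B cells had 1.84 (1.75 to 1.93) and microglia 1.67 (1.66 to 1.68).

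**Figure D2:**
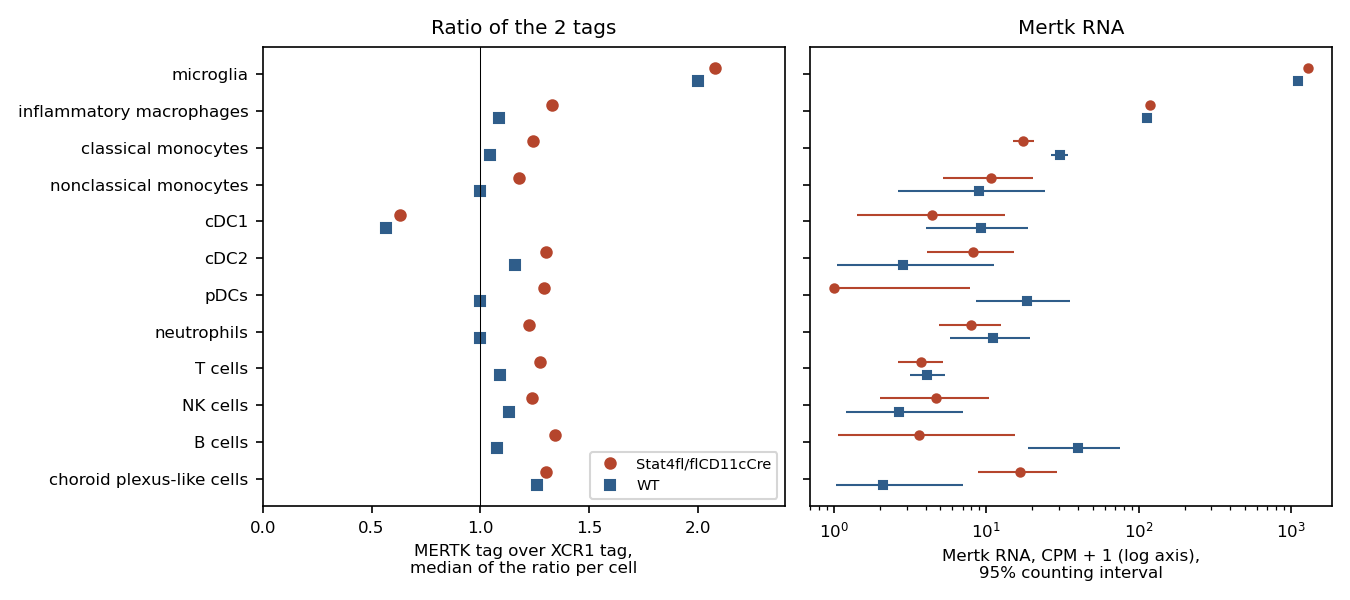
Left, median over cells of the MERTK tag divided by the XCR1 tag of the same cell; right, Mertk RNA as CPM + 1 on a log axis with 95% counting intervals; Stat4fl/flCD11cCre above WT in each row. Microglia lie at 2.08 in Stat4fl/flCD11cCre and 2 in WT, cDC1 at 0.631 and 0.567, and the other types near the T cell values of 1.28 and 1.09.

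Of the other TAM genes, Axl, the receptor of inflamed tissue, was highest in macrophages, at 124 CPM in Stat4fl/flCD11cCre and 117 CPM in WT, and in microglia it was at 25.8 and 74.3 CPM. Tyro3 stayed at or below 5.73 CPM in all types of both libraries. The ligand gene Gas6 was highest in choroid plexus-like cells, at 264 CPM in Stat4fl/flCD11cCre and 254 CPM in WT, and reached 88.0 and 64.8 CPM in their microglia. Pros1, which encodes protein S, was highest in microglia, at 311 CPM in Stat4fl/flCD11cCre and 260 CPM in WT.

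Xcr1 RNA stood out in cDC1, with few counts in the other 11 types. It was at 267 CPM (227 to 312, 157 UMIs) in the 44 cDC1 of Stat4fl/flCD11cCre and at 163 CPM (135 to 195, 119 UMIs) in the 76 cDC1 of WT. The next highest type had 0.285 CPM (T cells, 2 UMIs) in Stat4fl/flCD11cCre and 1.17 CPM (classical monocytes, 9 UMIs) in WT. In cDC2, 0 of 103 cells had an Xcr1 UMI in Stat4fl/flCD11cCre and 0 of 68 in WT, which at a floor of 3 counts allows a share of cells with a UMI of up to 2.91% and 4.41%. This limits detection and not expression, since many cDC1 had no Xcr1 UMI either. A UMI was found in 29 of 44 cDC1 (65.9%) of Stat4fl/flCD11cCre and 44 of 76 (57.9%) of WT, against 0.207% and 0.213% of T cells. Of the 87 and 151 cells with an Xcr1 UMI in Stat4fl/flCD11cCre and WT, 41 (47.1%) and 84 (55.6%) met the gates of several types and so are not in these values.

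The XCR1 tag was raised in cDC1 but was not the marker of that type alone. Its median in cDC1 was 61 UMIs (45 to 105) in Stat4fl/flCD11cCre and 24.5 UMIs (18 to 33) in WT, 2.44 and 2.23 times the T cell median. Inflammatory macrophages had 75 UMIs (70 to 81) in Stat4fl/flCD11cCre and 43 UMIs (40 to 46) in WT with Xcr1 RNA at 0.205 and 0.307 CPM. The XCR1-positive share was 52.3% (36.7 to 67.5) in cDC1 and 69.3% (66.0 to 72.4) in macrophages of Stat4fl/flCD11cCre, and 40.8% (29.6 to 52.7) and 65.9% (63.0 to 68.7) in those of WT. Classical monocytes had an XCR1 tag of 40 UMIs (38 to 42) in Stat4fl/flCD11cCre and 23 UMIs (22 to 25) in WT. In WT their interval overlapped that of cDC1. XCR1-positive were 30.6% of classical monocytes in Stat4fl/flCD11cCre and 36.7% in WT. Macrophages also had the highest sum of all 5 tags, a median of 2254 UMIs per cell in Stat4fl/flCD11cCre and 1797 UMIs in WT, against 424.5 and 238.5 UMIs in cDC1. As a share of the cell's own tag UMIs, XCR1 had a median of 16.1% in cDC1 and 3.57% in macrophages of Stat4fl/flCD11cCre, and 9.61% and 2.51% in those of WT. T cells, with few tag UMIs in all, had 12.8% in Stat4fl/flCD11cCre and 10% in WT, so on that scale cDC1 were not the highest type in WT. The ratio of XCR1 to MERTK tag was highest in cDC1 in both libraries, with a median of 1.59 in Stat4fl/flCD11cCre and 1.76 in WT, against 0.753 and 0.920 in macrophages.

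**Figure D3:**
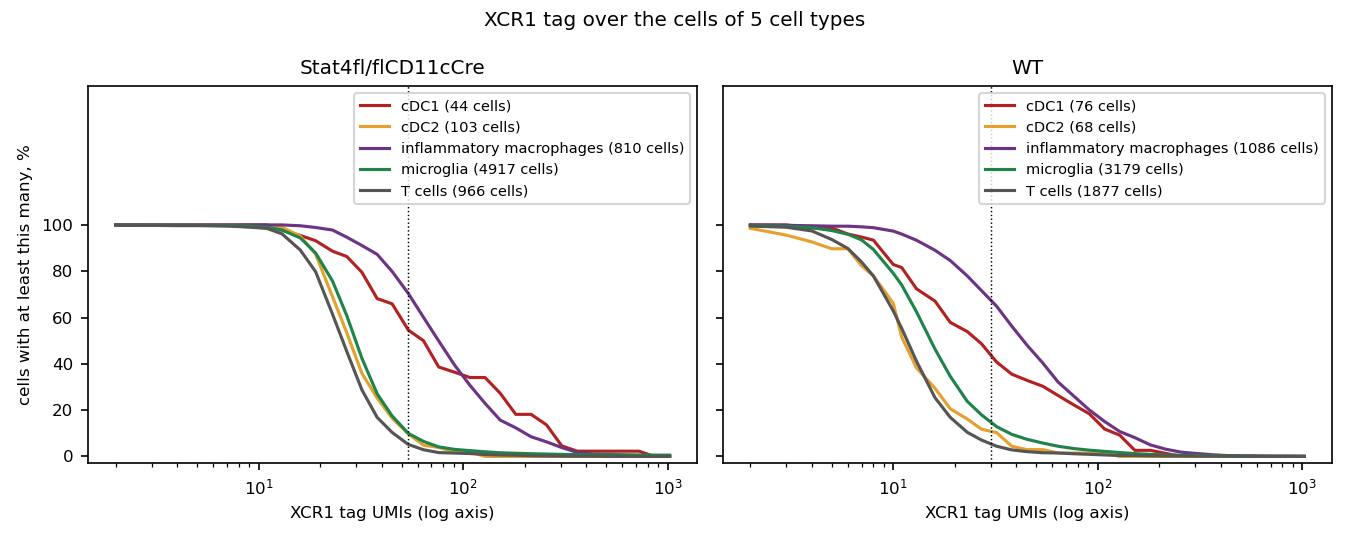
Share of cells (%) with at least the number of XCR1 tag UMIs on the log axis, for 5 cell types, Stat4fl/flCD11cCre left and WT right; the dotted line is the 95th percentile of T cells, 54 UMIs in Stat4fl/flCD11cCre and 30 UMIs in WT. The cDC1 curve lies above those of cDC2, microglia and T cells over most of its length, and the macrophage curve lies above it at the dotted line.

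Within cDC1, RNA and tag of XCR1 went together. The 29 cDC1 with an Xcr1 UMI in Stat4fl/flCD11cCre had a median XCR1 tag of 129 UMIs, and the 15 without one had 35 UMIs. In WT the 44 cDC1 with an Xcr1 UMI had a median of 52 UMIs and the 32 without one 15 UMIs. The cells without an Xcr1 UMI were shallower, with a median of 10107 gene UMIs against 14024 in Stat4fl/flCD11cCre and 8164 against 10325 in WT. After each cell was thinned to 2500 gene UMIs, WT cDC1 with an Xcr1 UMI had 77.5 UMIs of tag (40 to 104, 20 cells) and those without 18 UMIs (15 to 26, 53 cells); in Stat4fl/flCD11cCre too few cells were left for that comparison. Other cDC1 genes differed the same way: Gcsam, a cDC1 marker of the gate, had a UMI in 86.2% of cDC1 with and 53.3% of those without an Xcr1 UMI in Stat4fl/flCD11cCre, and in 81.8% and 34.4% in WT. Itgae, which encodes CD103, had one in 82.8% and 26.7% in Stat4fl/flCD11cCre and 81.8% and 40.6% in WT. These 2 shares were not thinned, and the part of depth in them was not tested.

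Read together, the XCR1 and CD172a tags split cDC1 from cDC2 in part. XCR1 alone was positive in 22 of 44 cDC1 (50%) of Stat4fl/flCD11cCre and 30 of 76 (39.5%) of WT, and in 0 of 103 cDC2 of Stat4fl/flCD11cCre and 0 of 68 of WT. CD172a alone was positive in 57 of 103 cDC2 (55.3%) of Stat4fl/flCD11cCre and 34 of 68 (50%) of WT, and in 2 of 44 and 2 of 76 cDC1. A single cDC1 in each library was positive for both, while 10 of 103 cDC2 of Stat4fl/flCD11cCre and 7 of 68 of WT were. Neither tag was positive in 19 of 44 cDC1 (43.2%) of Stat4fl/flCD11cCre and 43 of 76 (56.6%) of WT. The same held for 36 of 103 cDC2 (35.0%) of Stat4fl/flCD11cCre and 27 of 68 (39.7%) of WT. The ligand gene Xcl1 was at 744 CPM in NK cells of Stat4fl/flCD11cCre and 836 CPM in those of WT, and at 158 and 143 CPM in T cells; no other type passed 5.56 CPM.

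CD317 marked pDCs in tag and RNA alike. The pDC tag had a median of 219 UMIs (173 to 248, 75 cells) in Stat4fl/flCD11cCre and 176 UMIs (143 to 204, 74 cells) in WT, 10.4 and 13.5 times the T cell median. Bst2 RNA in these cells was at 4137 CPM (3967 to 4312) in Stat4fl/flCD11cCre and 3739 CPM (3563 to 3920) in WT. The CD317-positive share of pDCs was 92.0% (83.4 to 97.0) in Stat4fl/flCD11cCre and 93.2% (84.9 to 97.8) in WT. Inflammatory macrophages came next, with a tag of 89 UMIs in Stat4fl/flCD11cCre and 70 UMIs in WT; 75.1% and 73.9% of them were positive, with Bst2 at 489 and 460 CPM. cDC1 and cDC2 had like Bst2 levels, 431 and 430 CPM in Stat4fl/flCD11cCre and 562 and 510 CPM in WT, but tags of 34 UMIs each in Stat4fl/flCD11cCre and 31 and 28.5 UMIs in WT, below those of macrophages. NK cells had the lowest tag, at 17 UMIs with Bst2 at 81.4 CPM in Stat4fl/flCD11cCre, and 10 UMIs with 82.0 CPM in WT. By RNA the lowest were neutrophils in Stat4fl/flCD11cCre (69.7 CPM) and B cells in WT (69.5 CPM, 16 UMIs), with intervals that overlapped those of NK cells.

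Across the 12 types, tag and RNA of each pair rose together on a log scale. Pearson's r of log2 mean tag and log2 CPM, each with 1 added, was 0.85 for CD11b and Itgam in Stat4fl/flCD11cCre and 0.89 in WT. It was 0.78 and 0.80 for CD172a and Sirpa, and 0.74 and 0.86 for CD317 and Bst2, in Stat4fl/flCD11cCre and WT. MERTK and Mertk gave 0.54 in Stat4fl/flCD11cCre and 0.76 in WT, and XCR1 and Xcr1 0.52 and 0.50. The points of a library share its depth and staining, so these are descriptions. With tags as a share of the cell's own tag UMIs the sign turned for CD172a (r of -0.59 in Stat4fl/flCD11cCre and -0.40 in WT) and for MERTK (-0.22 and -0.15). CD11b held 57% of all tag UMIs in the Stat4fl/flCD11cCre library and 66% in the WT library. Spearman's rho for XCR1, whose RNA is near 0 outside 1 type, was 0.30 in Stat4fl/flCD11cCre and 0.54 in WT.

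**Figure D4:**
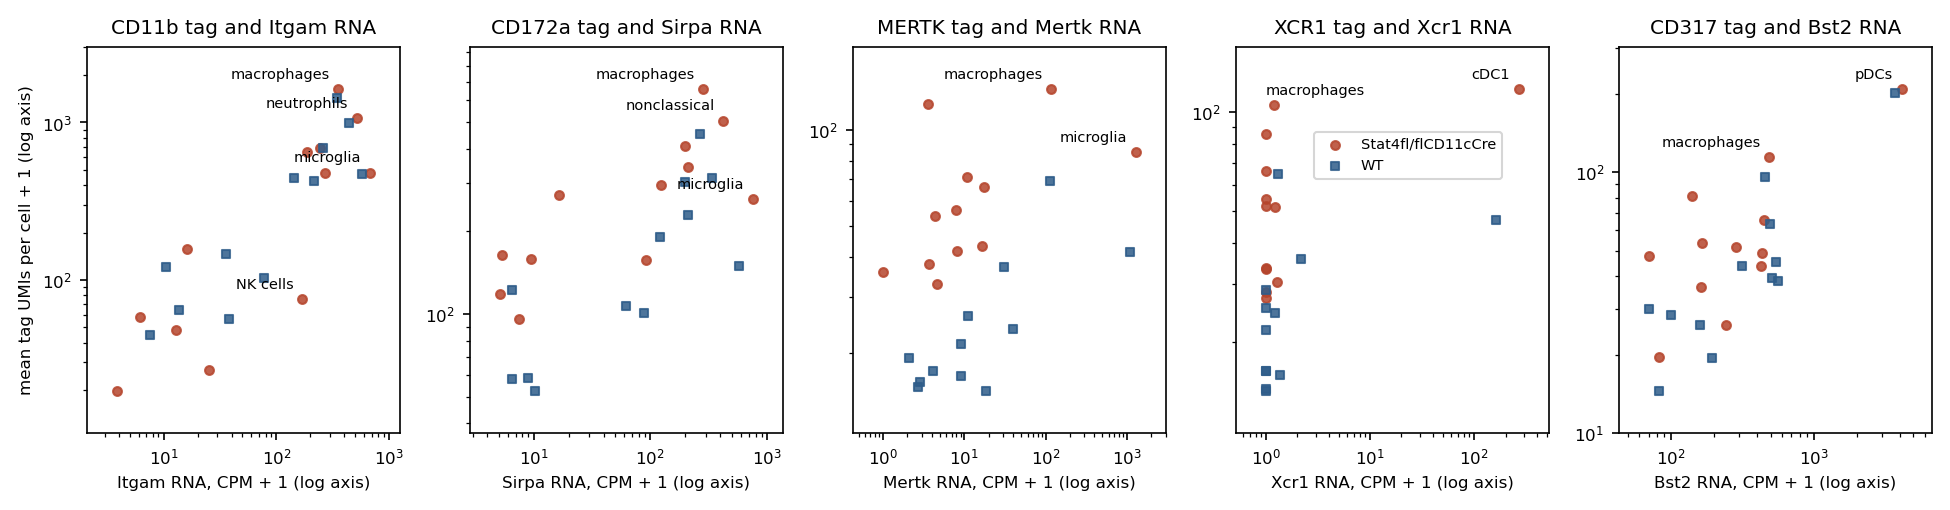
Mean tag UMIs per cell + 1 against CPM + 1 of the encoding gene, both on log axes, for 12 cell types; circles are Stat4fl/flCD11cCre and squares WT. pDCs stand alone for CD317 and cDC1 for Xcr1 RNA, while macrophages reach a higher tag than microglia at lower RNA for CD11b, CD172a and MERTK.

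The encoding gene was among the genes most like its tag, but other genes followed each tag more closely. Among 8533 genes ranked by the lower r of the 2 libraries over the 12 types, Bst2 was number 10 for its tag, Sirpa 39, Itgam 63, Mertk 110 and Xcr1 125. The 5 genes nearest to the CD11b tag were Igsf6, Fcgr3 (an Fc receptor of phagocytes), Clec4a2, Snx10 and Clec5a, with r from 0.93 to 0.94. The CD172a tag was nearest to Pstpip2, Ftl1 (ferritin light chain), Tlr8, Dram1 and Ly6i (0.84 to 0.88). The MERTK tag was nearest to Nrp2, Gab1, Clcn7, Abca1 (a cholesterol exporter) and Il1a (0.72 to 0.80), and the XCR1 tag to Rab7b, Rab32, Ftl1-ps1, Slamf8 and Ppt1 (0.66 to 0.68). None of these 5 was Xcr1 or a marker of the cDC1 gate. The CD317 tag was nearest to Nucb2, Slc49a4, Carmil1, Tifa and B3gnt8 (0.75 to 0.84). The genes named for each tag changed with the settings. With a stricter cell filter 2 of the first 5 stayed for CD11b, MERTK and XCR1, and 3 for CD172a and CD317. With 4 markers needed 2 stayed for CD11b, CD172a and MERTK, and 3 for XCR1 and CD317. By Spearman's rho 1 stayed for CD11b and XCR1, 2 for MERTK and CD317 and 0 for CD172a. Without likely doublets 3 to 5 stayed.

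The RNA of each member had other neighbours. Itgam RNA was nearest to Lrmda, Entpd1 (CD39), Ccl3, Fcgr3 and Arl8a (r of 0.89 to 0.94), so Fcgr3 was the only gene near both tag and RNA of a pair. Sirpa RNA was nearest to Abcd2, Csf1r (the receptor of M-CSF), Dock4, Tmem170b and Pla2g4a (0.88 to 0.91). Mertk RNA was nearest to the complement genes C1qc, C1qb and C1qa and to Ang and Olfml3 (0.88 to 0.91); Olfml3 is a marker of the microglia gate. Xcr1 RNA was nearest to Gcsam (0.97), a marker of the cDC1 gate, and then to Trim35, Ccser1, Itgae and Plet1 (0.76 to 0.77). Bst2 RNA was nearest to Lefty1, Epha2, Ccdc162, Igsf8 and Upb1 (0.79 to 0.83).

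Within a cell type, cells with a UMI of the encoding gene mostly had more tag, by a small margin. After thinning to 2500 gene UMIs, the tag median was higher with a UMI in 46 of 52 combinations of tag, type and library with at least 20 cells on each side. The median ratio was 1.13. The intervals of the 2 medians lay apart in 15 of the 52, each time with the higher tag on the side with a UMI. The 52 include T cells, which carry little CD11b or CD172a. In WT T cells the CD11b tag was 100 UMIs (67 to 240) with and 30 UMIs (29 to 31) without an Itgam UMI. Their CD172a tag was 66.5 UMIs (45 to 237) with and 40 UMIs (39 to 41) without a Sirpa UMI. In Stat4fl/flCD11cCre T cells the CD11b tag was 39 UMIs (23 to 241) and 21 UMIs (20 to 22). What sets these T cells apart was not tested. Without likely doublets the tag was higher in 46 of 50 combinations. NK cells with an Itgam UMI had a CD11b tag of 70.5 UMIs (54 to 83) against 35.5 (27 to 42) in Stat4fl/flCD11cCre and 84 UMIs (55 to 112) against 43 (38 to 52) in WT. The ratio was 1.99 in Stat4fl/flCD11cCre and 1.95 in WT. In microglia the CD317 tag was 30 UMIs with and 25 UMIs without a Bst2 UMI in Stat4fl/flCD11cCre, and 35 and 23 UMIs in WT. By contrast the MERTK tag of microglia was 62 and 61 UMIs with and without a Mertk UMI in Stat4fl/flCD11cCre, and 32 and 30 UMIs in WT. Neutrophils ran the other way for CD11b. Their tag was 667.5 UMIs (591 to 745) with and 760 UMIs (644 to 899) without an Itgam UMI in Stat4fl/flCD11cCre. In WT it was 558.5 UMIs (462 to 680) and 738 UMIs (619 to 958), and the intervals overlapped in both libraries. Without thinning they lay apart in Stat4fl/flCD11cCre, at 762 UMIs (706 to 830) with and 968 UMIs (864 to 1172) without an Itgam UMI. In WT they still overlapped, at 659.5 UMIs (553 to 825) and 862 UMIs (707 to 958). The 2 sides held 256 and 135 neutrophils of Stat4fl/flCD11cCre after thinning, and 428 and 169 without it.

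Between the genotypes, the raw tag medians mostly followed the shift already seen in T cells. Over 10 types with 50 or more cells in each library, the log2 ratio of Stat4fl/flCD11cCre over WT ran from 0.98 to 1.39 for MERTK and from 0.77 to 1.27 for XCR1, higher in every type. In T cells it was 1.39 for MERTK, 1.12 for XCR1, 1.20 for CD172a, 0.65 for CD317 and -0.49 for CD11b. On the raw medians, 28 of 50 combinations of tag and type were higher by 1.5-fold or more and 1 was lower. With the T cell value taken off, 10 of 45 passed 1.5-fold, 4 higher (all CD11b) and 6 lower (4 CD172a and 2 CD317). None of these 10 passed on the raw medians, where the log2 ratios were 0.15 to 0.48 for the CD11b ones, 0.38 to 0.55 for the CD172a ones, opposite in sign, and -0.15 and 0.05 for the CD317 ones, so each of these calls rests on the division by T cells. Relative to T cells the CD11b ones were cDC2 (log2 0.97), microglia (0.71), inflammatory macrophages (0.68) and neutrophils (0.64). The CD317 tag of microglia was 27 UMIs in Stat4fl/flCD11cCre and 30 UMIs in WT, a log2 ratio of -0.15, or -0.80 relative to T cells. With means in place of medians 10 combinations passed too, but 2 of them were the same (CD11b in macrophages and in cDC2), and with tags as a share of the cell's tag UMIs 6 passed, all CD11b, 4 of them the same. The 4 CD172a calls and both CD317 calls were lost under either summary; CD317 in microglia was then at -0.24 with means and -0.34 with shares.

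Relative to T cells, CD172a was lower in classical monocytes (log2 -0.81), nonclassical monocytes (-0.71), macrophages (-0.65) and neutrophils (-0.65). The T cell background enters this scale as a ratio. With the T cell median subtracted, classical monocytes kept 254 UMIs of CD172a in Stat4fl/flCD11cCre and 226 UMIs in WT, and macrophages 455.5 and 334 UMIs, higher in Stat4fl/flCD11cCre. For CD11b the subtraction left 505 UMIs in cDC2 of Stat4fl/flCD11cCre and 347 UMIs in those of WT, 355 and 294 UMIs in microglia, 1343 and 1167.5 UMIs in macrophages and 803 and 713 UMIs in neutrophils, each higher in Stat4fl/flCD11cCre but by less than 1.5-fold. The direction for CD172a thus depends on how the background is removed. For CD317 in microglia both ways gave the same direction, 6 UMIs above T cells in Stat4fl/flCD11cCre and 17 UMIs above in WT. The CD317-positive share was 11.8% (10.9 to 12.8) in Stat4fl/flCD11cCre and 31.3% (29.7 to 32.9) in WT, at thresholds of 53 and 41 UMIs. All of these values rest on the same T cell reference, and the raw medians were 27 and 30 UMIs.

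RNA of the members could be compared in 30 of 50 combinations of gene and type with 50 or more UMIs, and 5 passed 1.5-fold, 1 higher and 4 lower in Stat4fl/flCD11cCre. Bst2 in microglia was at 284 CPM (278 to 290) in Stat4fl/flCD11cCre and 541 CPM (530 to 552) in WT, a log2 ratio of -0.93 (-0.97 to -0.89). In microglia 11.1% of 12978 genes passed 1.5-fold lower and 7.55% higher, and the shares lower and higher were 3.5% and 1.84% in macrophages, 5.51% and 2.79% in classical monocytes and 6.77% and 6.69% in nonclassical monocytes. They were 7.02% and 5.54% in cDC2, 4.55% and 6.5% in pDCs, 14.7% and 2.58% in neutrophils, 2.89% and 2.33% in T cells, 2.9% and 5.77% in NK cells and 6.62% and 2.13% in choroid plexus-like cells. Itgam (0.21), Sirpa (0.38) and Mertk (0.22) did not pass there. Bst2 was also lower in choroid plexus-like cells, at 163 CPM against 314 CPM in WT (log2 -0.94, -1.27 to -0.62). It differed by less than 1.5-fold in the other 8 types, from -0.52 in neutrophils to 0.32 in T cells; in neutrophils it passed with the stricter cell filter (-0.75), without likely doublets (-0.73) and after thinning to 2500 UMIs (-1.17). The call in choroid plexus-like cells could not be made with the stricter filter, for lack of cells, and in pDCs it was 0.15 (0.05 to 0.24).

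The other 2 lower values were of scarce transcripts. Mertk in classical monocytes was at 16.5 CPM (147 UMIs) in Stat4fl/flCD11cCre and 29.4 CPM (227 UMIs) in WT, a log2 ratio of -0.83 (-1.14 to -0.53), against 5.51% of genes lower in that type. Sirpa in T cells was at 4.13 CPM (29 UMIs) in Stat4fl/flCD11cCre and 8.01 CPM (90 UMIs) in WT, log2 -0.95 (-1.61 to -0.34), against 2.89% of genes lower; T cells should lack this gene, and the level is near that of Itgam and Mertk in the same cells.

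Itgam in NK cells was the one higher value. It was at 167 CPM (144 to 194) in Stat4fl/flCD11cCre and 77.0 CPM (62.1 to 94.4) in WT, a log2 ratio of 1.12 (0.75 to 1.5), against 5.77% of genes higher in NK cells. A UMI was found in 51.7% of NK cells of Stat4fl/flCD11cCre and 26.1% of those of WT, whose median depths were 5090 and 3896 gene UMIs. The CD11b tag of these NK cells was 45 UMIs (38 to 53) in Stat4fl/flCD11cCre and 49 UMIs (42 to 56) in WT. Relative to T cells the tag ratio was 0.37 on the log2 scale, under 1.5-fold. In the other 7 types where Itgam was measured its log2 ratio ran from -0.07 to 0.38.

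**Figure D5:**
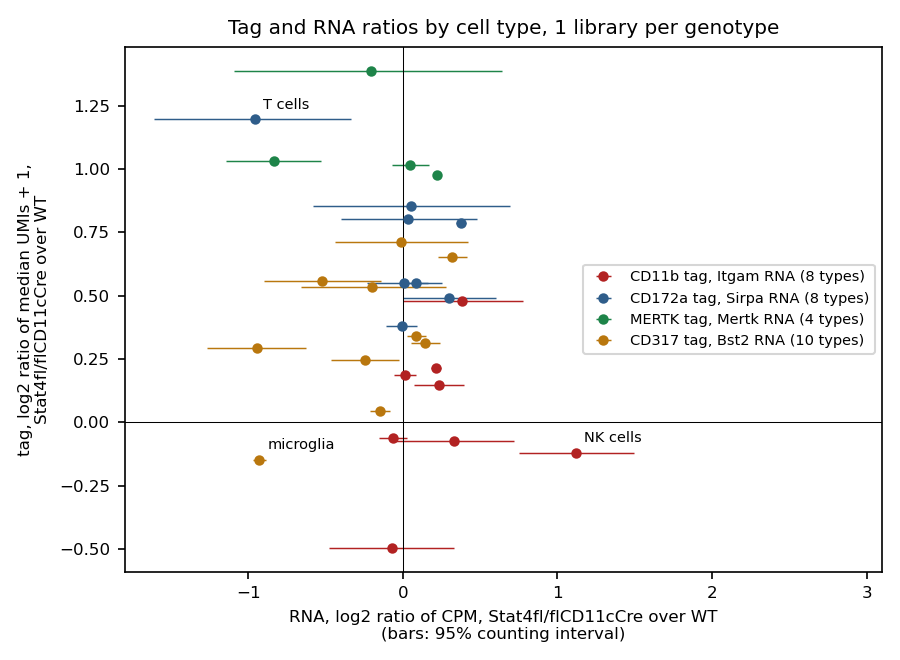
Log2 ratio of the tag median + 1 against the log2 ratio of RNA, Stat4fl/flCD11cCre over WT, for 30 combinations of member and cell type; bars are 95% counting intervals of the RNA ratio. Most RNA ratios lie near 0. The tag ratios of MERTK lie between 0.98 and 1.39 and those of CD172a between 0.38 and 1.20. Itgam in NK cells (1.12) is the only RNA ratio past 1.5-fold higher. Past 1.5-fold lower are Bst2 in microglia (-0.93) and choroid plexus-like cells (-0.94), Sirpa in T cells (-0.95) and Mertk in classical monocytes (-0.83).

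Itgam lies next to Itgax and Itgad on chromosome 7, in the order Itgam, Itgax (chr7:128129547-128150657) and Itgad (chr7:128154376-128223816), all on the plus strand. These neighbours were looked at after the Itgam value was seen. Itgad encodes the alpha D integrin chain and Itgax encodes CD11c, whose promoter drives the Cre. Itgad was at 85.1 CPM (93 UMIs) in NK cells of Stat4fl/flCD11cCre and 5.86 CPM (7 UMIs) in those of WT, a log2 ratio of 3.86 (2.76 to 5.21). It was higher also in nonclassical monocytes (58 UMIs against 1 UMI in WT, log2 4.72, 2.19 to 10.1), classical monocytes (62 against 3 UMIs, 4.16, 2.55 to 6.48) and T cells (69 against 17 UMIs, 2.70, 1.92 to 3.56), and lower in microglia (-1.11, -1.60 to -0.62). Other types had too few Itgad UMIs to count as measured. Among them were inflammatory macrophages (43 UMIs against 1 in WT, log2 5.43, 2.87 to 10.8) and pDCs (30 against 11, 1.21, 0.17 to 2.35). Itgad had 10 UMIs against 0 in cDC2 and 5 against 0 in neutrophils. Itgax was higher in nonclassical monocytes, at 337 CPM against 85.7 CPM in WT (log2 1.97, 1.44 to 2.55), and lower in microglia (-1.26) and classical monocytes (-0.71). In NK cells Itgax was at 80.5 CPM in Stat4fl/flCD11cCre and 70.3 CPM in WT (0.20, -0.25 to 0.64). What the values of the 3 neighbouring genes have in common was not tested.

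The listed partners of the 5 members differed most often in microglia. In microglia 10 of 18 measured partner genes were lower in Stat4fl/flCD11cCre and 0 higher, against 11.1% of all genes lower and 7.55% higher. Their median log2 ratio was -1.18, against a median of 0.09 over all genes. All 5 interferon-induced genes listed were lower there: Ifitm3, an antiviral membrane protein, was at 242 CPM in Stat4fl/flCD11cCre and 577 CPM in WT (log2 -1.25, -1.29 to -1.21). Isg15, Ifit3, Irf7 and Oasl2 ran from -1.64 to -1.41. Axl (-1.53) was the TAM gene that passed, with Gas6 and Pros1 under 1.5-fold, and of the CD11b list Itgal (-1.96), C3 (-1.73), Itgax and Itgad passed while Itgb2 and Icam1 did not. H2-Ab1 had a UMI in 26.6% of these microglia in Stat4fl/flCD11cCre and 79.2% in WT and was at 444 and 1726 CPM, at median depths of 5089 and 4553 gene UMIs. With 1 library each, a different make-up of the sorted microglia and the genotype cannot be told apart in the Bst2, CD317 and partner values.

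In inflammatory macrophages 0 of 15 measured partners passed 1.5-fold, against 3.5% of all genes lower and 1.84% higher, and the 4 measured members ran from 0.01 to 0.09. That count leaves out partners with too few UMIs to be measured. Among them Itgad had 43 UMIs against 1 in WT (log2 5.43, 2.87 to 10.8). Xcl1 went the other way, with 2 against 24 UMIs (-3.58, -6.71 to -1.57). The interferon-induced genes of these macrophages had a median log2 ratio of -0.31, with 5 of 5 measured under 1.5-fold. In T cells the median over the same 5 genes was -0.10 and in classical monocytes -0.47, again with 0 of 5 past 1.5-fold. Lower values past 1.5-fold were not confined to microglia. In cDC2 Ifit3 (log2 -1.06) and Oasl2 (-0.68) passed of 5, with a list median of -0.57, against 7.02% of all genes lower. In nonclassical monocytes Isg15 (-0.93, -1.65 to -0.20) and Oasl2 (-0.72, -1.53 to 0.11) passed of 4, with a median of -0.51, against 6.77% of genes. Both rest on few UMIs, 37 against 32 in WT and 32 against 24, and the interval of Oasl2 includes 0. In neutrophils Irf7 (-0.96) passed of 5, against 14.7% of genes lower, and in choroid plexus-like cells Ifitm3 (-1.92), the 1 gene measured, against 6.62%. In pDCs, the type with the most Bst2, Ifitm3 passed, at 178 CPM in Stat4fl/flCD11cCre and 424 CPM in WT (log2 -1.25, -1.62 to -0.89), while Bst2 did not. Of the CD11b ligand genes, Icam1 was lower in classical monocytes (log2 -0.99, -1.14 to -0.84) and in neutrophils (-1.22, -1.52 to -0.92), with Itgam at -0.06 and 0.23 in the same types. Over all partner lists, 1 was higher past 1.5-fold and 3 were lower of 16 in classical monocytes (all genes 2.79% higher and 5.51% lower). In nonclassical monocytes 2 and 3 of 13 passed (6.69% and 6.77%), and in cDC2 0 and 2 of 11 (5.54% and 7.02%). The counts were 0 and 1 of 8 in pDCs (6.5% and 4.55%) and 1 and 3 of 13 in neutrophils (2.58% and 14.7%). They were 1 and 1 of 17 in T cells (2.33% and 2.89%), 2 and 0 of 12 in NK cells (5.77% and 2.9%) and 0 and 1 of 4 in choroid plexus-like cells (2.13% and 6.62%).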

How the data were processed

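RNA and 5 antibody tags were measured with the 10x 3' V3 kit and an Illumina NovaSeq in 1 library of pooled sorted cells per genotype. The deposited values are UMI counts per feature and barcode, not normalised; per the submitters' processing notes Cell Ranger 7.0.0, STAR and mm10 were used. The matrices were filtered to cell barcodes; handling of intronic reads is not given in the sources used here.

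Cells were kept and gated as described, in Python 3.11.15 with numpy 2.4.6, scipy 1.17.1 and scanpy 1.11.5; cells of several types were left out, and doublets (Scrublet, the highest 10% removed) were treated as an alternative. RNA levels are summed counts per type with exact Poisson intervals, shares have exact Clopper-Pearson intervals, medians have order-statistic intervals, and RNA ratios have exact conditional binomial intervals. These cover counting error only, and UMI ratios needed 50 UMIs in the 2 libraries together. No test was run, since each genotype has 1 library. Genes named for likeness are the first 5 by the lower r of both libraries, among 8533 genes. On simulated data only the RNA ratio with its interval and the median interval were tested. The simulated ratio counts were Poisson draws, the model that the interval assumes, so spread between cells was not covered.

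The members, gates and partner lists were chosen with earlier results of these data known. A gene of the interferon-induced list is not reported here, and the list's counts and medians leave it out. Alternatives were a stricter filter (1000 genes, 2000 UMIs, 5% mitochondrial), 4 markers, no likely doublets, other tag summaries and thresholds, thinning to 2500 UMIs and, added after the data were seen, leaving out shared barcodes and RNA per cell.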

Additional observations from a re-analysis of the deposited data

How the results depend on the processing

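Of 1337 values under an alternative, 977 stayed within the interval or margin of the value reported, 355 moved out of it and 5 changed sign. With tags as a share of the cell's tag UMIs, r of tag and RNA changed sign for CD172a (-0.59 in Stat4fl/flCD11cCre and -0.40 in WT) and for MERTK (-0.22 and -0.15), and was 0.61 for CD317 in WT. On that scale the fold over T cells was 5.9 and 2.52 for CD11b in macrophages, 0.528 and 0.582 for CD172a in macrophages, 0.547 and 0.558 for MERTK in microglia, 1.25 and 0.961 for XCR1 in cDC1 and 4.3 and 4.74 for CD317 in pDCs, in Stat4fl/flCD11cCre and WT. The count of tag differences past 1.5-fold was then 6, of which 4 were shared with the 10 reported; the 4 CD172a and 2 CD317 ones were lost and 2 of CD11b gained, and CD317 in classical monocytes changed sign to 0.049 on the log2 scale. With the median tag, r was 0.89 for CD317 and 0.80 for MERTK in Stat4fl/flCD11cCre and 0.39 for XCR1 in WT. By Spearman's rho the encoding gene ranked 77 for CD172a, 68 for CD317, 274 for MERTK and 808 for XCR1.

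With the 99th percentile of T cells as threshold, the positive share was 82% and 73% for CD11b and 64.7% and 49.1% for CD172a in macrophages, 10.0% and 7.74% for MERTK in microglia, 34.1% and 22.4% for XCR1 in cDC1 and 78.7% and 81.1% for CD317 in pDCs, Stat4fl/flCD11cCre before WT. With B cells in place of T cells it was 83.7% for CD11b in WT macrophages, 92.3% and 83.4% for CD172a in macrophages and 59.7% and 29.1% for MERTK in microglia, Stat4fl/flCD11cCre before WT. With 4 markers needed, RNA in microglia of Stat4fl/flCD11cCre and WT was 655 and 563 CPM for Itgam, 731 and 559 CPM for Sirpa and 1229 and 1043 CPM for Mertk, and in WT 4100 CPM for Bst2 in pDCs and 219 CPM for Xcr1 in cDC1. The ranks were 63 for CD172a and 23 for CD317, the WT shares 95.7% for CD172a in macrophages, 56.1% for MERTK in microglia and 99.2% for CD317 in pDCs, and r for XCR1 in WT 0.62. The folds over T cells were 43.1 for CD11b in WT macrophages, 6.41 in Stat4fl/flCD11cCre and 10.2 in WT for CD172a in macrophages and 2.75 for MERTK in WT microglia.

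With the stricter filter the ranks were 77 for CD172a and 206 for MERTK and the WT shares 98.3% for CD172a in macrophages and 62.9% for MERTK in microglia. Without likely doublets Mertk in microglia was at 1304 CPM in Stat4fl/flCD11cCre and 1117 CPM in WT, the ranks were 199 for CD172a and 361 for MERTK, and r in Stat4fl/flCD11cCre was 0.67 for CD172a and 0.42 for MERTK. The shares were then 100% for CD11b in Stat4fl/flCD11cCre macrophages, 97.9% and 98.7% for CD172a in macrophages and 54.9% and 62.5% for MERTK in microglia of Stat4fl/flCD11cCre and WT; the microglia's fold over T cells was 1.94 in Stat4fl/flCD11cCre. The causes were not tested. No paired analysis was possible because the labels give no replicate numbers and each genotype has 1 library, so no library could be left out. Ratios of cDC2 with 4 markers and of choroid plexus-like cells with the stricter filter had too few cells to compute. Depth limits Xcr1, with 157 UMIs in cDC1 of Stat4fl/flCD11cCre and 119 in those of WT, and let 30 of 50 member RNA ratios be measured.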
